A study of Homo sapiens with 4 samples.

Results

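Myeloid growth factor receptors were examined by RNA-seq in THP-1 cells. THP-1 is an established line grown from a human acute monocytic leukaemia and carries a KMT2A-MLLT3 fusion. The receptors are 7 genes chosen by name: CSF1R, FLT3 and KIT, which encode receptor tyrosine kinases of class III, and CSF2RA, IL3RA, CSF2RB and CSF3R, which encode cytokine receptor chains. All 7 names were found among the 25680 rows of the count tables. The control cells were transduced with the lentivirus PGP-Scrambled (n = 2 libraries) and the knockdown cells with PGP-shPIWIL4, a lentivirus with an shRNA against PIWIL4 (n = 2 libraries). Both groups were grown in RPMI medium with serum, transduced, and sorted by flow cytometry 48 hours after transduction. The study looked for genes that differ in expression when PIWIL4 is knocked down in acute myeloid leukaemia cells. It used 1 cell line and 1 shRNA against PIWIL4, and lower PIWIL4 and off-target action of that shRNA cannot be told apart. The sample titles call the 2 libraries of a group exp. rep1 and exp. rep2, without saying what was repeated. Nothing in the labels says that they came from separate cultures, so p-values measure the spread between these libraries, which may be technical. In these bulk samples, fewer cells of a type and less RNA per cell cannot be told apart.

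These receptors set how myeloid cells respond to growth factors. CSF1R binds CSF1 and IL34 and sustains monocytes and macrophages, FLT3 binds FLT3 ligand on early progenitors and dendritic cell precursors, and KIT binds stem cell factor on stem and progenitor cells and mast cells. CSF3R is the G-CSF receptor of the neutrophil lineage. CSF2RA and IL3RA are the ligand-specific alpha chains for GM-CSF and IL-3, and each pairs with CSF2RB, the common beta chain that carries the signal. The kinases phosphorylate themselves, while the cytokine receptors rely on bound JAK kinases, and both kinds feed STAT5, RAS-MAPK and PI3K signalling. In acute myeloid leukaemia FLT3 is known for activating mutations, and IL3RA (CD123) and CSF1R are known as drug targets.

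Total counts per library ranged from 31458079 to 53657246. PIWIL4 itself was at 38.5 and 37.2 CPM (counts scaled to a common library size with TMM factors) in Scrambled libraries 1 and 2 and at 17.8 and 17.4 CPM in shPIWIL4 libraries 1 and 2, which fits the labels. Of 16108 genes tested with edgeR's quasi-likelihood test, 57.7% were called at a Benjamini-Hochberg adjusted p under 0.05, 28.7% as higher and 29.1% as lower in shPIWIL4. With upper-quartile scaling the share of calls that were higher went from 49.7% to 37.6%, and the median over all genes shifted by -0.12 on the log2 scale, from -0.0034. All 13 markers of monocytic leukaemia cells were tested, and their summed level was 2377 to 2735 CPM in Scrambled and 4705 to 5913 CPM in shPIWIL4. Of these markers 6 were called higher in shPIWIL4 (LYZ, CD68, ANPEP, ELANE, AZU1 and FCGR1A), 2 lower (CD4 and MPO) and 5 neither. The AZU1 groups overlapped, with 946 CPM in Scrambled library 2 and 938 CPM in shPIWIL4 library 2. The shPIWIL4 libraries were 1.79-fold apart for ELANE and 1.69-fold apart for AZU1, with library 1 the higher. The lysozyme gene LYZ was at 147 ± 5.6 CPM in Scrambled and 1810.2 ± 10 CPM in shPIWIL4 (SD, n = 2 each), and CD68 at 163 and 346 CPM on average. Of 7 T and NK cell markers 6 stayed under 1 CPM in every library, as did 7 of 8 erythroid and megakaryocyte markers and 5 of 6 mast cell and basophil markers. The remaining marker held most of each list's sum. Summed T and NK markers were 29.1 to 32.3 CPM in Scrambled and 24.3 to 26.9 CPM in shPIWIL4. The sums were 2.05 to 2.27 and 1.91 to 2.64 CPM for erythroid and megakaryocyte markers. For mast cell and basophil markers they were 5.23 to 5.35 and 4.18 to 4.43 CPM. The markers at 0 in all 4 libraries included CD3E, CD2 and KLRD1 (T and NK cells), PF4 (megakaryocytes), CPA3 and FCER1A (mast cells and basophils), and KRT19, COL1A2 and COL3A1 (epithelium and fibroblasts). Summed B cell markers were 11.2 to 11.4 CPM in Scrambled and 4.87 to 5.12 CPM in shPIWIL4, with CD79A and CD79B called lower, and summed epithelial and fibroblast markers were 4.56 to 4.81 CPM and 0.908 to 1.29 CPM, with KRT8, KRT18 and COL1A1 called lower. The part of these marker differences in the receptor results was not tested.

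Of the 7 receptor genes, 5 had counts and all 5 passed the filter on low counts, while CSF2RA and IL3RA were listed at 0 in all 4 libraries. CSF1R and CSF3R were lower and FLT3 was higher in shPIWIL4, and CSF2RB and KIT were not called. That is 3 of 5 tested genes, or 60%, where 57.7% of all genes tested were called. The share is near the background, so the count says nothing particular about receptors. The changes were also of middling size. The 3 called receptors had log2 fold changes of 0.39 to 0.49 in size, or 1.31-fold to 1.41-fold. The median size of the log2 fold change was 0.41 over all genes tested and 0.67 over called genes. In size of log2 fold change, CSF1R lay at the 57.4th percentile of all genes tested, FLT3 at the 47.9th, CSF3R at the 47.8th, CSF2RB at the 31.5th and KIT at the 18.5th.

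The stretches of DNA before the start sites of the 3 called receptors are shown so that the region read by myeloid transcription factors can be compared between genes that fell and the gene that rose. They are the 250 bases before a RefSeq start site (GRCh38.p14), written along the gene's strand. Capitals mark matches on either strand to GAGGAA, the purine-rich core bound by PU.1, TGTGGT, bound by RUNX factors, and GCAAT, a half-site of C/EBP factors. CSF1R has 2 start sites in RefSeq, an upstream one used in trophoblast and a downstream one used in monocytes and macrophages, and the downstream window, chr5:150086555-150086804 on the minus strand, is given. For CSF3R, which also has 2, the downstream window chr1:36482914-36483163 on the minus strand is given. The FLT3 window is chr13:28100577-28100826 on the minus strand.
CSF1R: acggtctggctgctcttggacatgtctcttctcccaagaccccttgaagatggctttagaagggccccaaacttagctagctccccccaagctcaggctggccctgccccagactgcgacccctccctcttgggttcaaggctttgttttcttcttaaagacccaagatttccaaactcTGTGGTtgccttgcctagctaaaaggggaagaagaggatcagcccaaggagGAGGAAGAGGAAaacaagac
CSF3R: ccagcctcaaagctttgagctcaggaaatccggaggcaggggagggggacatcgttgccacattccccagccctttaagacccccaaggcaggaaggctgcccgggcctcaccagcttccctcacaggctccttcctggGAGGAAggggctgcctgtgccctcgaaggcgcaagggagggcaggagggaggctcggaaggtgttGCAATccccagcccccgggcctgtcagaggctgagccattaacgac
FLT3: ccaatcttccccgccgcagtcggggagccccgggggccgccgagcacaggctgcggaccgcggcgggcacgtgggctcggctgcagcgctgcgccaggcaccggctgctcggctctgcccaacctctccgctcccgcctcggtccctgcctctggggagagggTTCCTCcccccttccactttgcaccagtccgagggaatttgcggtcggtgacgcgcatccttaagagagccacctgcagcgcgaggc

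The CSF1R window holds 2 GAGGAA matches side by side and 1 TGTGGT match, the CSF3R window 1 GAGGAA match and 1 GCAAT match, and the FLT3 window 1 GAGGAA match, on the opposite strand. None of these matches overlaps another. Over 35116 windows of the same length before RefSeq start sites, 23.6% held GAGGAA, 11% TGTGGT and 21.3% GCAAT. The 3 windows also differ in base composition, with 53.2% G and C for CSF1R, 64.4% for CSF3R and 72.0% for FLT3, where the median window had 58%. The upstream CSF1R window and the KIT window held none of the 3 motifs. The upstream CSF3R window, chr1:36483315-36483564, held 1 GCAAT match and had 43.2% G and C. A match is a run of letters and not a measured site.

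Levels of different genes were compared in the deposited TPM values, which are scaled by gene length. CSF3R was the most abundant, at 177 and 188 TPM in Scrambled libraries 1 and 2 and 157 and 131 TPM in shPIWIL4 libraries 1 and 2. FLT3 was at 39.9 and 37.5 TPM in Scrambled and 47.9 and 56.5 TPM in shPIWIL4. CSF1R was at 22.9 and 24.4 TPM in Scrambled and 17.4 and 17.2 TPM in shPIWIL4. The beta chain CSF2RB lay below these genes and the stem cell factor receptor KIT was the lowest of the 5. CSF2RB was at 7.96 and 10.3 TPM in Scrambled and 8.86 and 7.17 TPM in shPIWIL4. KIT was at 1.52 and 1.55 TPM in Scrambled and 1.68 and 1.80 TPM in shPIWIL4. The order CSF3R, FLT3, CSF1R, CSF2RB, KIT was the same in every library, and no neighbours in it had overlapping values over the 4 libraries. Mean CSF3R was 119 times KIT in Scrambled and 82.6 times KIT in shPIWIL4. The closest neighbours were FLT3 and CSF1R in Scrambled, with a ratio of mean TPM of 1.64, which was 3.01 in shPIWIL4.

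**Figure D1:**
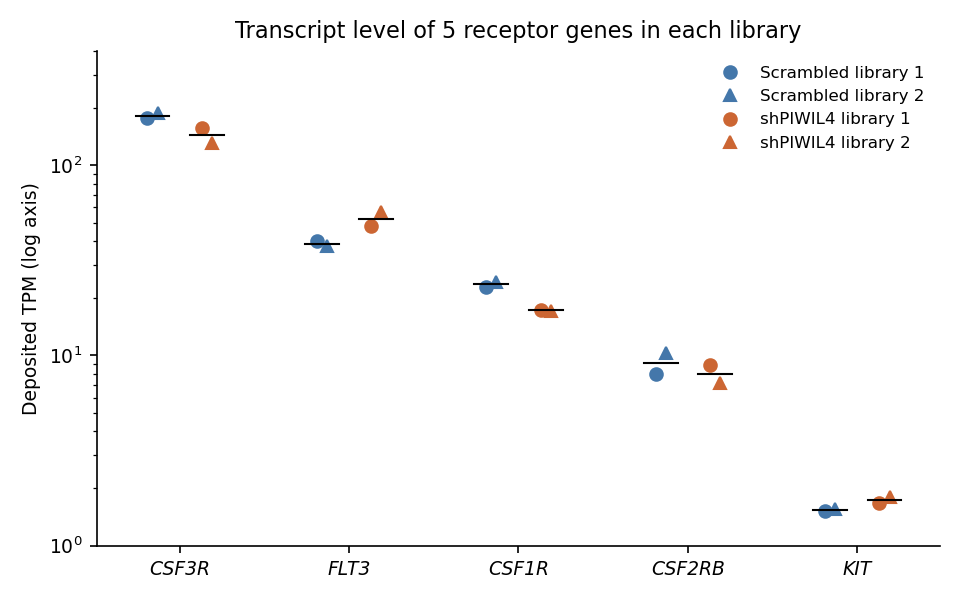
Deposited TPM (log axis) of the 5 receptor genes that had counts, with 1 point per library and a line at the mean of each group of 2. The groups do not overlap for CSF3R, FLT3, CSF1R and KIT, and they overlap for CSF2RB.

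CSF1R, the receptor of macrophage colony-stimulating factor, was lower in both shPIWIL4 libraries. It had 1482 and 2553 counts in Scrambled libraries 1 and 2, or 46.7 and 48.4 CPM, and 1691 and 1774 counts in shPIWIL4 libraries 1 and 2, or 33.4 and 34.1 CPM. The libraries of each group lay close together and the groups were well apart. CSF1R fell by 0.49 on the log2 scale (SE 0.09), from 47.5 ± 1.2 to 33.8 ± 0.54 CPM (SD, n = 2 each), and its edgeR quasi-likelihood p after Benjamini-Hochberg adjustment was 9.6e-04. That is 71.1% of the Scrambled level. CSF1R was called lower in all 12 alternative analyses, with log2 fold changes between -0.62 and -0.43. Over those analyses the share of all tested genes that was called was 56.9% with upper-quartile factors, 56.5% with library totals, 45.4% with no filter beyond 1 count, 60.2% with a filter of 50 counts, 50.4% with a replicate block, 46.8% with DESeq2, and 54% and 54.6% with limma on log2(TPM + 1) and log2(TPM + 0.1). It was 46.0% and 43.5% without Scrambled libraries 1 and 2, and 61.7% and 60.8% without shPIWIL4 libraries 1 and 2. A replicate block with crossed numbers, added after seeing the data, gave 70.6%.

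CSF3R, the G-CSF receptor, was also lower in both shPIWIL4 libraries. It had 9947 and 17074 counts in Scrambled, or 313 and 323 CPM, and 13195 and 11725 counts in shPIWIL4, or 260.4 and 226 CPM. The groups did not overlap, and the shPIWIL4 libraries were 1.15-fold apart where the Scrambled libraries were 1.03-fold apart. CSF3R fell by 0.39 on the log2 scale (SE 0.09), from 318 ± 7.3 to 243 ± 25 CPM, and its edgeR adjusted p was 6.1e-03. It was called lower in the same 12 alternatives too, with log2 fold changes between -0.51 and -0.28 and adjusted p up to 0.042, the value of limma on log2(TPM + 1).

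FLT3, the kinase that binds FLT3 ligand, was the 1 receptor called higher. It had 2469 and 3741 counts in Scrambled, or 77.7 and 70.9 CPM, and 4433 and 5564 counts in shPIWIL4, or 87.5 and 107 CPM. Both shPIWIL4 libraries were above both Scrambled libraries, and they were 1.22-fold apart from each other. FLT3 rose by 0.39 on the log2 scale (SE 0.11), from 74.3 ± 4.9 to 97.3 ± 14 CPM, and its edgeR adjusted p was 0.012. The call did not hold without Scrambled library 2 (log2 fold change 0.33, edgeR adjusted p 0.058) or with upper-quartile factors (0.27, edgeR adjusted p 0.057). Without shPIWIL4 library 2 the log2 fold change was 0.24 and the gene was still called.

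KIT and CSF2RB did not pass the test. KIT had 127 and 209 counts in Scrambled, or 4.0 and 3.96 CPM, and 210 and 239 counts in shPIWIL4, or 4.14 and 4.6 CPM. The groups did not overlap, but the log2 fold change was only 0.14 (SE 0.14, 95% interval -0.17 to 0.44) and an edgeR adjusted p of 0.41. Its unadjusted p in the main edgeR test was 0.34. KIT was called in 0 of the 12 alternatives. The values leave room for a modest change in either direction.

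CSF2RB had 622 and 1302 counts in Scrambled, or 19.6 and 24.7 CPM, and 1035 and 891 counts in shPIWIL4, or 20.4 and 17.1 CPM. Scrambled library 1 lay among the shPIWIL4 libraries, so the groups overlapped. The log2 fold change was -0.24 (SE 0.13, 95% interval -0.54 to 0.061) and an edgeR adjusted p of 0.15. CSF2RB was called lower without shPIWIL4 library 1 (-0.37, edgeR adjusted p 2.5e-03) and with upper-quartile factors (-0.36, edgeR adjusted p 0.046), and it stood at -0.053 without Scrambled library 2. CSF2RB counts are also uncertain to the extent that reads are shared with its pseudogene CSF2RBP1. In all, 4 of the 5 counted receptors had groups that did not overlap in CPM, which was so for 78.6% of all genes tested.

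**Figure D2:**
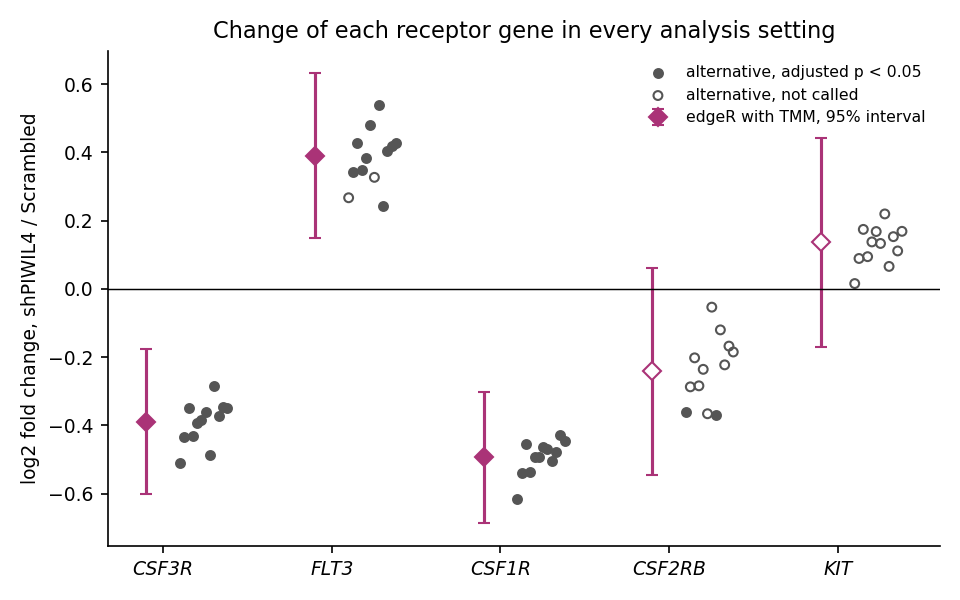
Log2 fold change (shPIWIL4 over Scrambled) of each counted receptor gene, with the edgeR value and its 95% interval as a diamond and 12 alternative analyses as circles, filled where the adjusted p was under 0.05. CSF1R and CSF3R stay below 0 and called throughout, FLT3 stays above 0 with 2 open circles, and CSF2RB has 2 filled circles.

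**Figure D3:**
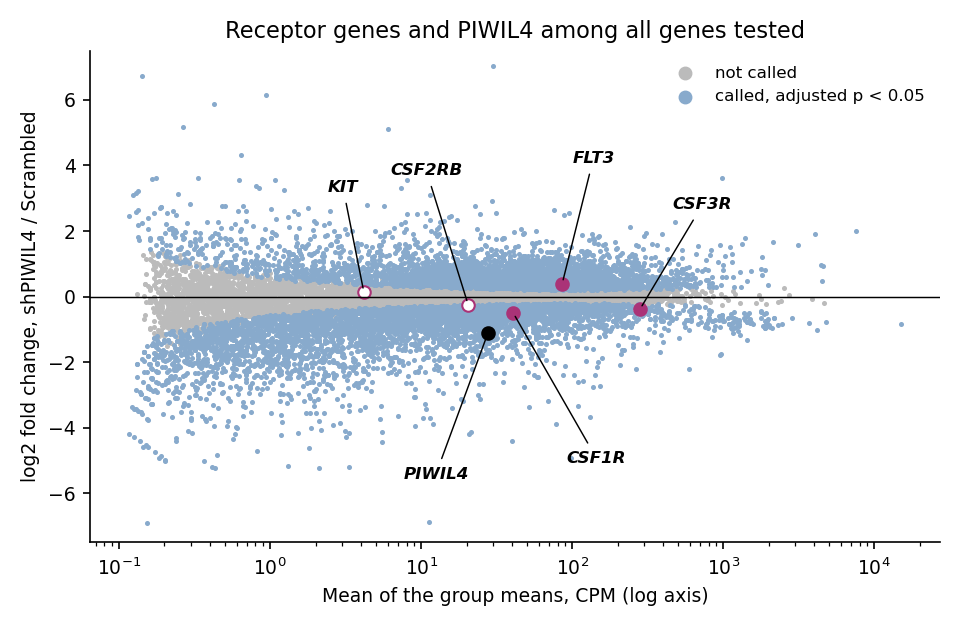
Log2 fold change (shPIWIL4 over Scrambled) against mean CPM (log axis) for the 16108 genes tested, with called genes in blue, the receptors in magenta (open where not called) and PIWIL4 in black. The receptors lie close to 0 compared with the spread of called genes, and PIWIL4 lies at -1.10.

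Ratios of 2 receptors within a library do not depend on how libraries are scaled. FLT3 was 1.74 and 1.53 times CSF1R (TPM) in Scrambled libraries 1 and 2 and 2.74 and 3.28 times CSF1R in shPIWIL4 libraries 1 and 2. The groups did not overlap, and the ratio was higher by 0.88 on the log2 scale in shPIWIL4. CSF3R was 4.44 and 5.02 times FLT3 in Scrambled and 3.28 and 2.32 times FLT3 in shPIWIL4, a fall by 0.78 on the log2 scale. CSF3R and CSF1R kept about the same ratio, at 7.74 and 7.71 in Scrambled and 8.99 and 7.62 in shPIWIL4, and these groups overlapped. The exact two-sided permutation test over 4 libraries cannot go below p = 0.33, which was its value for the FLT3 ratios to CSF1R and CSF3R, so no ratio can pass a threshold. Of the 10 ratios between the 5 counted receptors, these 3 are given because they hold the called genes. As a share of the summed TPM of the 5 receptors, FLT3 took 16% and 14.3% in Scrambled and 20.6% and 26.4% in shPIWIL4, while CSF3R took 71.0% and 71.8% in Scrambled and 67.4% and 61.3% in shPIWIL4. KIT took under 1% in every library.

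The alpha chains CSF2RA and IL3RA could not be measured in these tables. Both lie in the pseudoautosomal region at the tips of the X and Y chromosomes, where the same sequence is present on each. The bases before the CSF2RA start site are shown as an example, chrX:1268564-1268813 on the plus strand (GRCh38.p14), with the same motifs in capitals. RefSeq gives the same letters at chrY:1268564-1268813.
CSF2RA: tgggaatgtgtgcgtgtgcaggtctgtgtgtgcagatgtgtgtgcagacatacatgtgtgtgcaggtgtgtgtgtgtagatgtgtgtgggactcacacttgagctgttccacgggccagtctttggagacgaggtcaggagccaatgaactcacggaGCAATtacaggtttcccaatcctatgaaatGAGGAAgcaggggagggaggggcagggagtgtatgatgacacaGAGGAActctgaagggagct

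Over the 300 bases around the start site, 300 were identical between X and Y for CSF2RA and 300 of 300 for IL3RA. Among 18 genes of the tables with a RefSeq start site on both X and Y, 16 (88.9%) had 0 counts in all 4 libraries. CSF2RA and IL3RA themselves are among these 16, so the share is not independent of them. The highest count of the genes not at 0 was 4 in a library. Of 666 genes with a start site on X only, 23.0% were at 0, and 342 reached at least 100 counts in a library. Of 15056 genes with an autosomal start site, 14.2% were at 0. A list of 13 genes of the short-arm pseudoautosomal region, without CSF2RA and IL3RA, held 12 at 0. All of the 13 but CRLF2 and AKAP17A were also among the 18 genes above, so most of these zeros are the same. The zeros included SLC25A6, an ADP/ATP carrier gene, and CD99, a leukocyte surface protein gene. Both are used widely across cell types and were named here after their values were seen. How reads that fit both chromosomes were counted is not given in the sources used here, and its part in the zeros was not tested. A count of 0 allows up to 3 counts, or 0.0559 to 0.0954 CPM by library (on library totals without TMM factors), for counting error only. The zeros of CSF2RA and IL3RA are therefore given as listed values and not as absence of the transcripts. The ratio of an alpha chain to CSF2RB, which would describe the GM-CSF and IL-3 receptors, could not be formed.

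**Figure D4:**
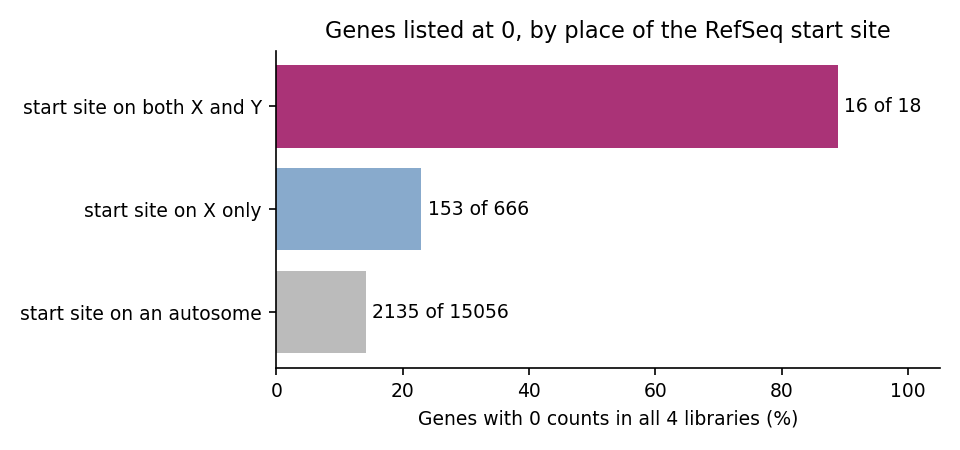
Share of genes with 0 counts in all 4 libraries (percent), for genes whose RefSeq start site lies on both X and Y, on X only or on an autosome. The bar for genes on both X and Y, which include CSF2RA and IL3RA, reaches 88.9%, against 23.0% and 14.2%.

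Of 8 ligand genes 3 were tested, of which KITLG rose, CSF1 fell and FLT3LG was not called. That is 66.7% of only 3 genes, beside 57.7% of all genes tested, so the count says nothing particular about ligands. CSF1, the CSF1R ligand, was at 7.15 and 7.39 CPM in Scrambled and 1.80 and 1.58 CPM in shPIWIL4, and fell by 2.11 on the log2 scale (SE 0.14). KITLG, the stem cell factor gene, was at 7.40 and 7.52 CPM in Scrambled and 23.2 and 20.2 CPM in shPIWIL4, and rose by 1.54 (SE 0.11). The edgeR adjusted p was 4.5e-06 for CSF1 and 6.8e-06 for KITLG. In these 2 pairs the log2 fold change was larger in size for the ligand than for its receptor. KITLG was 1.76 and 1.81 times KIT (TPM) in Scrambled and 5.31 and 4.19 times KIT in shPIWIL4, and CSF1 was 0.125 times CSF1R in both Scrambled libraries and 0.044 and 0.0378 times in shPIWIL4. FLT3LG, named here after its values were seen, had a log2 fold change of 0.10 (SE 0.19) around a mean of 2.13 CPM in Scrambled. The pair of FLT3LG and FLT3 went the other way, with the larger change in the receptor (0.39). CSF2 and IL3 were at 0 in all 4 libraries, and IL34, CSF3 and IL5 had at most 2 counts in a library.

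**Figure D5:**
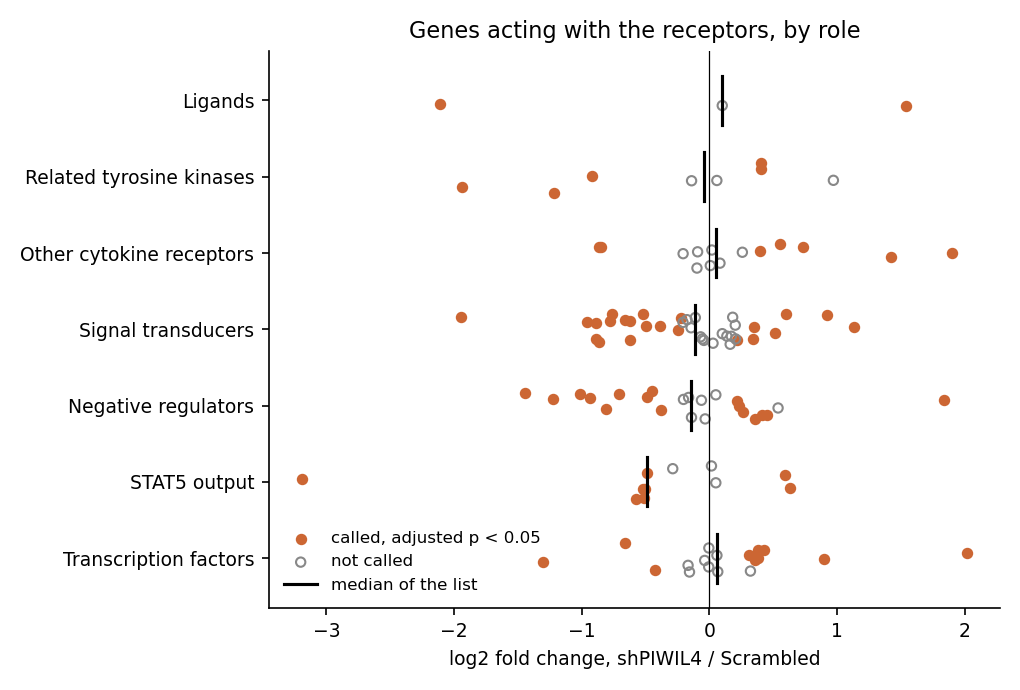
Log2 fold change (shPIWIL4 over Scrambled) of tested genes that act with the receptors, by role, filled where the adjusted p was under 0.05, with a bar at the median of each list. In each list called genes lie on both sides of 0, and the median is farthest from 0 for STAT5 output, at -0.49.

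Among 126 other genes of the pathway, 112 were tested, and 31 were called higher and 38 lower, or 61.6%, beside 57.7% of all genes tested. Their median log2 fold change was -0.041, beside -0.0034 over all genes tested. Kinases related to CSF1R, FLT3 and KIT were split, with 2 of 8 tested genes higher (1 without Scrambled library 2) and 3 lower and a median of -0.041. AXL, a TAM family receptor, fell from 19.1 ± 0.54 to 5.0 ± 0.27 CPM. The platelet-derived growth factor receptor gene PDGFRB fell from 3.56 ± 0.087 to 1.53 ± 0.014 CPM, and the VEGF receptor gene FLT1 from 16.2 ± 0.64 to 8.56 ± 0.71 CPM. IGF1R, an insulin-like growth factor receptor gene, rose by 0.41 (SE 0.08). Of 14 tested cytokine receptors outside the 7, 2 fell and 5 rose. Their median was 0.051, but -0.071 under upper-quartile scaling, which called 5 higher and 4 lower. The interleukin-6 receptor gene IL6R rose from 449 ± 5.5 to 1202 ± 35 CPM and IL21R from 3.74 ± 0.095 to 14 ± 0.081 CPM. IL4R rose by 0.74 (SE 0.08), and the erythropoietin receptor gene EPOR fell from 21.2 ± 0.18 to 11.8 ± 0.64 CPM.

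Of 37 signal transducers below the receptors 7 were called higher and 15 lower, with a median of -0.11, beside 28.7% higher and 29.1% lower among all genes tested. The difference from all genes was not tested. STAT5B, a main STAT of these receptors, fell from 115 ± 0.81 to 62.2 ± 3.1 CPM. JAK3, a kinase of common gamma chain receptors, fell from 11.3 ± 0.017 to 2.94 ± 0.22 CPM. SYK, a kinase of immunoreceptors and integrins, rose from 189 ± 8.5 to 359 ± 30 CPM. JAK2, the kinase bound by CSF2RB and CSF3R and named here after its values were seen, was not called, at a log2 fold change of 0.17 (SE 0.08) and an edgeR adjusted p of 0.095. Upper-quartile scaling called 4 transducers higher and 19 lower.

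Of 23 negative regulators 7 were called higher and 9 lower, with a median of -0.14. The count of those called higher was 4 under upper-quartile scaling (with 12 lower), with library totals, with the filter of 50 counts, with the replicate block, and without Scrambled library 1 or Scrambled library 2. CBL, the ubiquitin ligase that marks activated receptor kinases for degradation, fell from 352 ± 9.4 to 150.3 ± 9.1 CPM. INPP5D, which encodes the lipid phosphatase SHIP1, fell from 795 ± 18 to 393 ± 10 CPM, and PTPRC, which encodes the phosphatase CD45, from 294 ± 2.8 to 153 ± 7.1 CPM. SLA, an adaptor that lowers receptor levels, rose from 5.54 ± 0.14 to 19.7 ± 1.5 CPM. Among 11 tested STAT5 output genes, 6 fell and 2 rose, and the median was -0.49, beside 57.7% called in either direction and 29.1% lower among all genes tested. Upper-quartile scaling called 2 higher and 7 lower, with a median of -0.61, and without Scrambled library 2 the count called higher was 1. OSM, the oncostatin M gene, fell from 3.01 ± 0.34 to 0.331 ± 0.049 CPM, and the feedback inhibitor gene SOCS2 from 142 ± 1.6 to 101 ± 0.51 CPM. The survival gene MCL1 fell by 0.51 (SE 0.09) and the kinase gene PIM2 by 0.52 (SE 0.09). The 2 that rose were PIM1, by 0.59 (SE 0.13), and BCL6, by 0.63 (SE 0.13). CISH was not called, at 0.050 (SE 0.11). PIM1, BCL6 and CISH were named here after their values were seen. SOCS2 and CISH stood in both lists, and the STAT5 output genes also answer to other signals.

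Transcription factors known to act on the receptor genes included 18 that were tested, of which 7 rose and 3 fell. That is 55.6% called, near the 57.7% of all genes tested (28.7% higher and 29.1% lower). The median of these 18 was 0.062, but -0.058 under upper-quartile scaling, which called 5 higher and 4 lower. Without shPIWIL4 library 1 the count called lower was 6. GATA2, a progenitor and mast cell factor, fell from 50.2 ± 3.9 to 20.4 ± 3.7 CPM. MITF, a factor of mast cells and melanocytes, rose from 1.37 ± 0.24 to 5.63 ± 0.10 CPM, ETS1 from 35.3 ± 1.3 to 65.9 ± 5.6 CPM and the repressor gene GFI1 from 235 ± 0.56 to 316 ± 3.1 CPM. Of the factors whose motifs were marked above, SPI1, CEBPA and RUNX1 were named after their values were seen, and none of them was called. RUNX genes other than RUNX1 were not in the list. CBFB, in the list and also named after its values were seen, was called higher (log2 fold change 0.35, SE 0.11). SPI1, which encodes PU.1, was at 101 and 117 CPM in Scrambled and 114 and 81.9 CPM in shPIWIL4, so the groups overlapped (log2 fold change -0.16, SE 0.14). CEBPA had a log2 fold change of -0.0058 (SE 0.09) and RUNX1 of 0.065 (SE 0.09). Each of the genes named in these 4 paragraphs by rule had an edgeR adjusted p of at most 2.1e-03, the value of IGF1R.

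Genes with the profile most like that of each called receptor were found by the Euclidean distance between log2 CPM values, centred on each gene's mean, over the 4 libraries. Among 10627 candidates, those nearest to CSF1R were JARID2, ZNF260 and EMC3-AS1, at distances of 0.015, 0.019 and 0.020. KANSL2, STPG1 and PARL were nearest to FLT3, at 0.021, 0.026 and 0.030, and TEN1-CDK3, EVL and PI4KAP2 to CSF3R, at 0.033, 0.034 and 0.036. Within a distance of 0.1 lay 192 genes for CSF1R, 238 for FLT3 and 84 for CSF3R, so such profiles were common over only 4 libraries. TEN1-CDK3 is a readthrough locus, EMC3-AS1 an antisense gene and PI4KAP2 a pseudogene, and the counts of all 3 are uncertain.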

How the data were processed

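RNA of transduced THP-1 cells was sequenced from Illumina TruSeq libraries, per the labels' protocols. The submitters' processing notes name hg19 and, as tools, STAR, featureCounts and DESeq2. No version, annotation or strand setting is given in the sources used here. The authors deposited a raw count per gene for each library, with FPKM and TPM values. A further deposited matrix gives a normalized signal for all 4 libraries, found to be the count divided by the DESeq2 size factor of the library, and it was used only for that check. FPKM was used to recover gene lengths, and TPM to compare levels between genes.

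Groups were taken from the sample titles, since the treatment label of the shPIWIL4 libraries also holds the word scrambled. The tests used edgeR 4.0.16 (R 4.3.3) on the counts, with the filterByExpr filter (at least 10 counts, total at least 15), TMM factors, and the robust quasi-likelihood F test with group as the only term. P-values were adjusted by Benjamini-Hochberg over all 16108 tested genes, and calls were made below 0.05. An SE was obtained from the log2 fold change and the F statistic. The CPM shown are TMM-scaled, apart from the limits for a count of 0, and errors are SD over 2 libraries. TMM centres the genes on each other, so directions are relative to all genes tested. Alternatives used DESeq2 1.42.0, limma 3.58.1 on log2(TPM + 1) and log2(TPM + 0.1), other scalings and filters, a replicate block, and each library left out in turn. The methods were tested on simulated counts.

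The receptors, the gene lists and the tests were chosen with earlier results of these data known. Genes were named by rule: PIWIL4, the 7 receptors, up to 4 called genes of each list with the smallest p, and the 3 genes of at least 5 CPM most like each called receptor, without uncharacterised loci. A few list genes that the rule or the marker lists would name are not reported here. Promoter windows came from RefSeq (GRCh38.p14), which held windows for 6 of the 7 receptors. Over genes with a total of at least 20 counts, replicates gave a chi-square per gene of 7.89 in Scrambled and 27.9 in shPIWIL4, so replicates differed by more than sampling noise.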

Additional observations from a re-analysis of the deposited data

How the results depend on the processing

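CSF1R and CSF3R kept their direction and call in all 12 alternatives, and no receptor changed sign in any of them. With upper-quartile factors, 0 receptors were higher and 3 lower, since FLT3 (0.27) lost its call and CSF2RB (-0.36) gained one. Leaving out each library in turn gave 0 to 1 receptors higher and 2 to 3 lower, with log2 fold changes of 0.24 to 0.54 for FLT3 and -0.37 to -0.053 for CSF2RB. FLT3 lost its call without Scrambled library 2, and CSF2RB gained one without shPIWIL4 library 1. With 1 library left in a group, that library is assumed to vary like the others. The cause of these shifts was not tested. The replicate block moved FLT3 to 0.38 and left CSF1R at -0.49, with 1 receptor higher and 2 lower, and it changed no other call among the receptors. The titles give shared replicate numbers but not a shared batch, and deviations of same-numbered libraries correlated at -0.31 across genes. With the crossed numbers in a replicate block, chosen after seeing the data, 1 receptor was higher and 3 lower, with CSF2RB at -0.24. For 37 other genes named by rule (PIWIL4 and list genes), all 443 values under the 12 alternatives kept direction and call. The list genes among them had been picked for the smallest p in these same data. Their calls were therefore likely to hold, and this does not describe the rest of the lists. The stricter filter left out 1 of these genes, KRT18. The alternatives for the ratio of alpha to beta chains could not be run, since CSF2RA and IL3RA are listed at 0. Depth limits KIT most, with 127 to 239 counts a library.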
